A study of Mus musculus with 37 samples.

Results

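Natural killer (NK) cells kill by releasing cytotoxic granules, which are lysosomes adapted for secretion, and this account follows the genes that fill, acidify, move and release them. The 37 genes were taken from a list drawn up by function, in 7 roles, and 36 of them were matched among the 53700 genes in each count file. The list was chosen with earlier results of these data known. Vamp7, a SNARE of late endosomes, was not analysed here. The roles are granule contents and matrix, release and granule transport machinery, lysosomal membrane proteins and channels, cathepsins, cystatins, other hydrolases and saposins, and TFEB with the V-ATPase. Release machinery, proteases and cystatins are described apart.

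Pregnant C57BL6 uteri were collected at gestation day 9.5 to 10.5, and uterine NK (uNK) cells were sorted as live single CD45+ NKp46+ cells, negative for lineage markers that include CD3, CD4 and CD8 and without high CD11b. Both NKG2A and the Ly49C/I pair inhibit NK cells on binding self MHC class I. The WT groups were 9 libraries of uneducated cells (neither receptor), 9 of NKG2A+ cells (without Ly49C/I) and 6 of Ly49C/I+ cells (without NKG2A). Mice labelled NKG2A KO gave 8 libraries of uneducated cells and 5 of Ly49C/I+ cells, and cells with both receptors were not collected. The paper lists the antibody for this gate as NKG2AC/E, so whether the gate in KO mice separates cells by Ly49C/I alone was not tested. Nothing in the labels says that libraries of a group came from separate mice, so p-values measure the spread between these libraries.

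As background, perforin is stored in the granule with serglycin at low pH, and granules travel along microtubules to the synapse, dock through RAB27A and MUNC13-4 and fuse through syntaxin 11. Cathepsin C activates granzymes, cystatins inhibit cathepsins, and TFEB drives the transcription of lysosomal genes through E-box elements in their promoters. Education by MHC class I is known to be linked to the size of this lysosomal store in NK cells.

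Between 13287163 and 18875033 reads were counted on genes per library, and levels are given as CPM (counts per 1000000 reads on genes) scaled by TMM factors. An error taken from the counts alone covers counting error only, and libraries of a group differed by more than that (chi-square per degree of freedom from 23.6 to 163). Klrc1 (NKG2A) followed the labels, with 498 to 766 CPM in NKG2A+ libraries and 1.26 to 13.9 CPM in WT uneducated ones. Klra9 (Ly49I) did so too, with 468 to 737 CPM in WT Ly49C/I+ libraries (median 683) against 50.4 to 112 CPM in uneducated ones (median 65.1). Klra3 (Ly49C) did not, since it ranged from 25.5 to 82.6 CPM in WT Ly49C/I+ (median 58.8) and from 69.9 to 213 CPM in uneducated libraries (median 137), with KO medians of 98.4 and 150 CPM.

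All 10 NK cell markers had medians over 5 CPM in every group. Their summed level had higher medians in educated libraries, at 9978 CPM in WT uneducated, 12740 in NKG2A+ and 12152 in WT Ly49C/I+, and at 10787 in KO uneducated and 14180 in KO Ly49C/I+ libraries. Against uneducated cells 5, 4 and 7 of the 10 passed the test described below as higher in NKG2A+, WT Ly49C/I+ and KO Ly49C/I+ cells and 0 as lower, and of the T cell markers 4 of 6, 2 of 5 and 1 of 5 tested were higher. Epcam, Cdh1 and Pecam1, from lists of epithelium and endothelium markers, were lower in NKG2A+ cells, Epcam and Pecam1 in WT Ly49C/I+ cells and Epcam in KO Ly49C/I+ cells. Of the 8 epithelium and trophoblast and 4 endothelium markers, only these genes had a median over 5 CPM in any group. Whether they stand for those cells here was not tested. The mast cell gene Cpa3 was lower in both WT comparisons. The part of these cell types in the results was not tested. The summed level of 14 macrophage, monocyte and dendritic cell markers differed between groups, with medians of 416 CPM in WT uneducated, 230 CPM in NKG2A+, 197 CPM in WT Ly49C/I+, 355 CPM in KO uneducated and 85.0 CPM in KO Ly49C/I+ libraries. WT uneducated library 5 had 13990 genes detected, the fewest of its group. NKG2A+ libraries 1, 3 and 4 carried 503, 286 and 904 CPM of 9 stroma and decidual markers, against 54.1 CPM or less in the others of that group. In bulk samples, fewer cells of a type and less RNA per cell cannot be told apart.

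Promoters are shown for members whose transcripts moved, since E-boxes of the TFEB type (CACGTG, and the longer TCACGTGA that contains it) and the T-box motif AGGTGTGA could be read in them. The windows run from 250 bases before to 50 bases after the annotated start, 5′ to 3′ on the gene's strand, from RefSeq (GRCm38.p6), and capitals mark motif matches on either strand. Perforin and cystatin C, which passed as lower in each comparison with uneducated cells, come first (Prf1 at chr10:61297586-61297885, plus strand, and Cst3 at chr2:148875463-148875762, minus strand). Lamp1 (chr8:13158911-13159210, plus) and Ctsd (chr7:142387778-142388077, minus) hold E-boxes, and Nkg7 (chr7:43436888-43437187, plus) holds the T-box letters.
Prf1: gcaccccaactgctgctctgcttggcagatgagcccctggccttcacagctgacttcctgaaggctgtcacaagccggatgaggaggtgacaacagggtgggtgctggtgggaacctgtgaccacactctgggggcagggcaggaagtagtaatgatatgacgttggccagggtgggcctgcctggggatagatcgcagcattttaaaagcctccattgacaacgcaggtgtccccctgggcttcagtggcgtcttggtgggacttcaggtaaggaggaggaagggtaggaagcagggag
Cst3: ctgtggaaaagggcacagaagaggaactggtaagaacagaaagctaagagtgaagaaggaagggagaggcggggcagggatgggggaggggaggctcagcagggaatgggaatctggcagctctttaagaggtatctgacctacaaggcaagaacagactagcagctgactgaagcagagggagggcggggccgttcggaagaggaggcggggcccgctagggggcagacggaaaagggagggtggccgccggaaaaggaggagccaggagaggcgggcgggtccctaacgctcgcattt
Lamp1: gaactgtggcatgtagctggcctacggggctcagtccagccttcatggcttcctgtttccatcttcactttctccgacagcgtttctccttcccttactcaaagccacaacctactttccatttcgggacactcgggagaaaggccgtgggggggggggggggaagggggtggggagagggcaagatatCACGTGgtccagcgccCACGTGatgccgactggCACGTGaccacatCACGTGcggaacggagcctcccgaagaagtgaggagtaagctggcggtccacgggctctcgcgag
Ctsd: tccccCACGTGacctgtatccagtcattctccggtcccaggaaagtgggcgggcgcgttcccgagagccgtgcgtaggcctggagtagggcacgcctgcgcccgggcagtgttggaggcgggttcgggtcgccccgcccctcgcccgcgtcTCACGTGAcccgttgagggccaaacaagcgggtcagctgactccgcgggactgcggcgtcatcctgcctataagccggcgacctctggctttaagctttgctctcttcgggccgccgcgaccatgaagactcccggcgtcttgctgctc
Nkg7: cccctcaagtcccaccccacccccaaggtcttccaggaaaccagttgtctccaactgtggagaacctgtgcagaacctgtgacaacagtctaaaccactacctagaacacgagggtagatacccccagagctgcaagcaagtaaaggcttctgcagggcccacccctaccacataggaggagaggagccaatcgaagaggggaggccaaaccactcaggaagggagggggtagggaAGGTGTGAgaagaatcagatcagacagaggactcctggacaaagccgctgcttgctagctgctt
The Prf1 and Cst3 windows held none of the 3 motifs. Lamp1 held 4 copies of CACGTG, from position -61 to position -15 relative to the start. Of the 30 members with a window, 10 held CACGTG (33.3%), against 8.09% of all 27025 genes with one, and 5 held TCACGTGA (Atp6v0d1, Atp6v1a, Ctsa, Ctsd and Mcoln1; 16.7%), against 1.12%. AGGTGTGA was found for Nkg7 and Rab27a, and in 1.48% of all genes. These matches are descriptions of the letters in the window and not measured sites. In NKG2A+ against uneducated cells, 5 of the 10 members with CACGTG passed the edgeR test described below (2 higher, 3 lower), as did 7 of the 20 without it (2 higher, 5 lower), against 16.3% of all genes. In WT Ly49C/I+ against uneducated cells the counts were 0 of 10 and 5 of 20, against 9.20%, and in KO mice 1 of 10 (lower) and 7 of 20 (3 higher, 4 lower), against 16.3%.

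Per kilobase of exon, the order of levels in WT uneducated cells began with granule proteins. Nkg7, a granule membrane protein needed for exocytosis, had a median of 2814 CPM per kb, followed by Prf1 at 1260, the NK cell cathepsin Ctsw at 717, the cystatin Cst7 at 598, Ctsd at 596 and the proteoglycan core Srgn at 538. These were the 6 members over 500 CPM per kb. Another 22 lay between 10 and 500, with Lamp1 at 123 and the release genes Unc13d and Rab27a at 49.1 and 25.4. The 8 members under 10 CPM per kb were Lamp2, Tfeb, Mcoln1, Mcoln2, Lipa, Cd63, Ctsl and Lyst, down to 0.635 CPM per kb for Lyst. Adjacent medians in this order such as Cst7 and Ctsd, or Stx11 and Rab27a, lay closer together than the spread of their libraries.

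**Figure D1:**
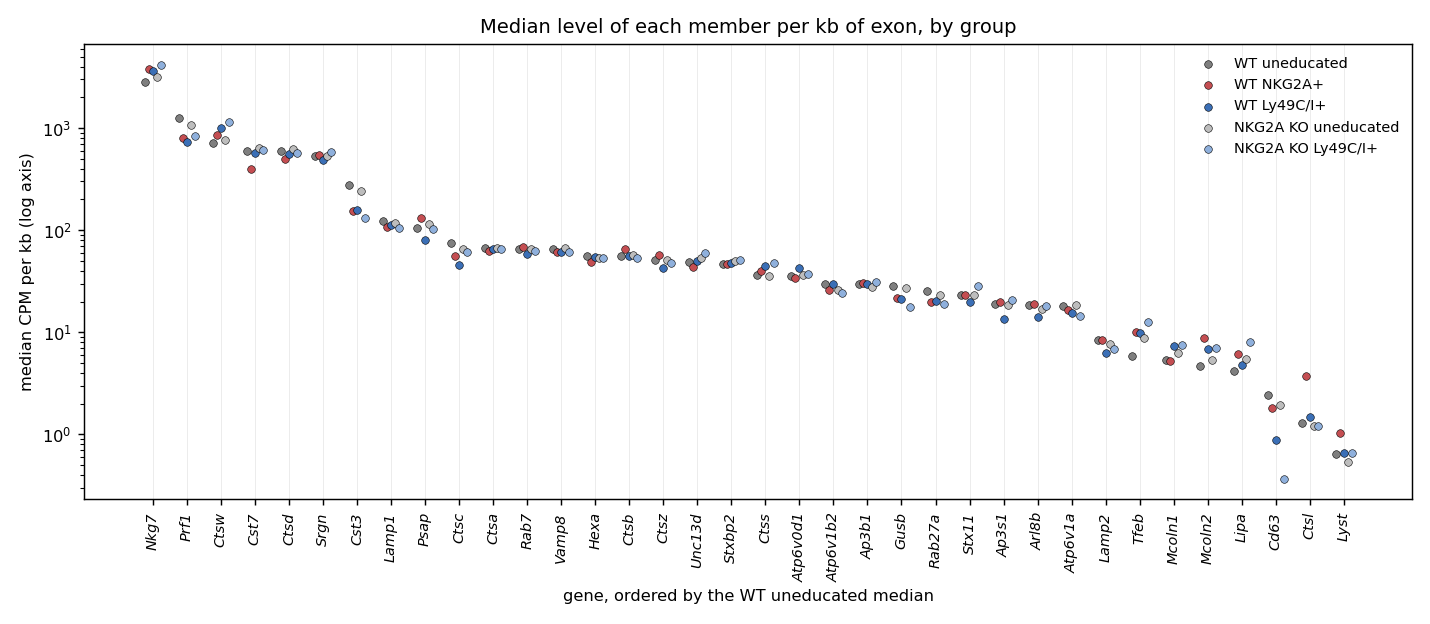
Median level of each of the 36 members in CPM per kb of exon (log axis) in the 5 groups, with genes ordered by the WT uneducated median. Nkg7 and Prf1 lead with 2814 and 1260 CPM per kb, and Lyst is last at 0.635.

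The first comparison asked which of these genes differ between NKG2A+ and uneducated cells of WT mice. Library 5 of each group was left out here, which leaves 8 libraries a group, whereas the paper's legend gives 9 for each. Uneducated library 5 stayed in the other comparisons. With all 9 and 9 libraries the calls of Ctsl, Gusb, Rab27a and Ctsb were lost. Of the 36 members, 14 passed edgeR's quasi-likelihood test (adjusted p under 0.05 over all 9349 genes), 6 higher and 8 lower in NKG2A+ cells. Over all genes tested, 16.3% passed, 8.56% higher and 7.70% lower, whereas 38.9% of the members did. Since the list was chosen with earlier results of these data known, such shares, here and below, describe the list and do not test for an excess. The groups did not overlap for 4 members, against 2.65% of all genes. The median log2 fold change was 0.01 over the members and 0.02 over all genes, so the members did not shift one way as a list. Without NKG2A+ libraries 1, 3 and 4 (stroma and decidual markers) 8 members passed, and without uneducated library 3 and NKG2A+ library 1 (macrophage, monocyte and dendritic cell markers) 8 passed, both choices being made after the data were seen. Prf1, Nkg7, Ctsc, Ctsd, Cst3, Cst7 and Gusb were called in both cases, with Tfeb in the first and Ctsl in the second. Without uneducated library 1 the count was 9, and without NKG2A+ library 3 it was also 9. Fits with fewer libraries can call fewer genes of any kind. Whether such losses, here and in the comparisons below, are particular to the members was not tested.

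The second comparison set Ly49C/I+ against uneducated WT cells, and shares the uneducated libraries with the first. Of 36 members, 7 passed, 2 higher and 5 lower, and the groups did not overlap for 2. The background was 9.20% of 9292 genes (4.50% higher, 4.70% lower), with 2.46% not overlapping, against 19.4% of the members. The median log2 fold change of the members was -0.14 and that of all genes 0.01. Leaving out 1 library lowered the count to 4 for uneducated 1, 2, 3 or 4 and Ly49C/I+ 5 or 8, and to 3 for Ly49C/I+ 7, whereas it was 10 without uneducated 5. Without the libraries over 600 CPM of macrophage, monocyte and dendritic cell markers (uneducated 3 and Ly49C/I+ 1), 5 members passed.

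In NKG2A KO mice, Ly49C/I+ and uneducated cells came from other libraries than in WT mice. There, 9 of 36 members passed, 4 higher and 5 lower, or 25.0% against 16.3% of 9299 genes (7.34% higher, 8.99% lower). The members that passed include Cd63, which reached the filter on low counts through the uneducated libraries. The groups did not overlap for 2 members, and for 5.99% of all genes. The members' median log2 fold change was -0.03, and that of all genes was 0.02. Without the KO uneducated libraries over 600 CPM of macrophage, monocyte and dendritic cell markers (3 and 6), 7 passed.

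**Figure D2:**
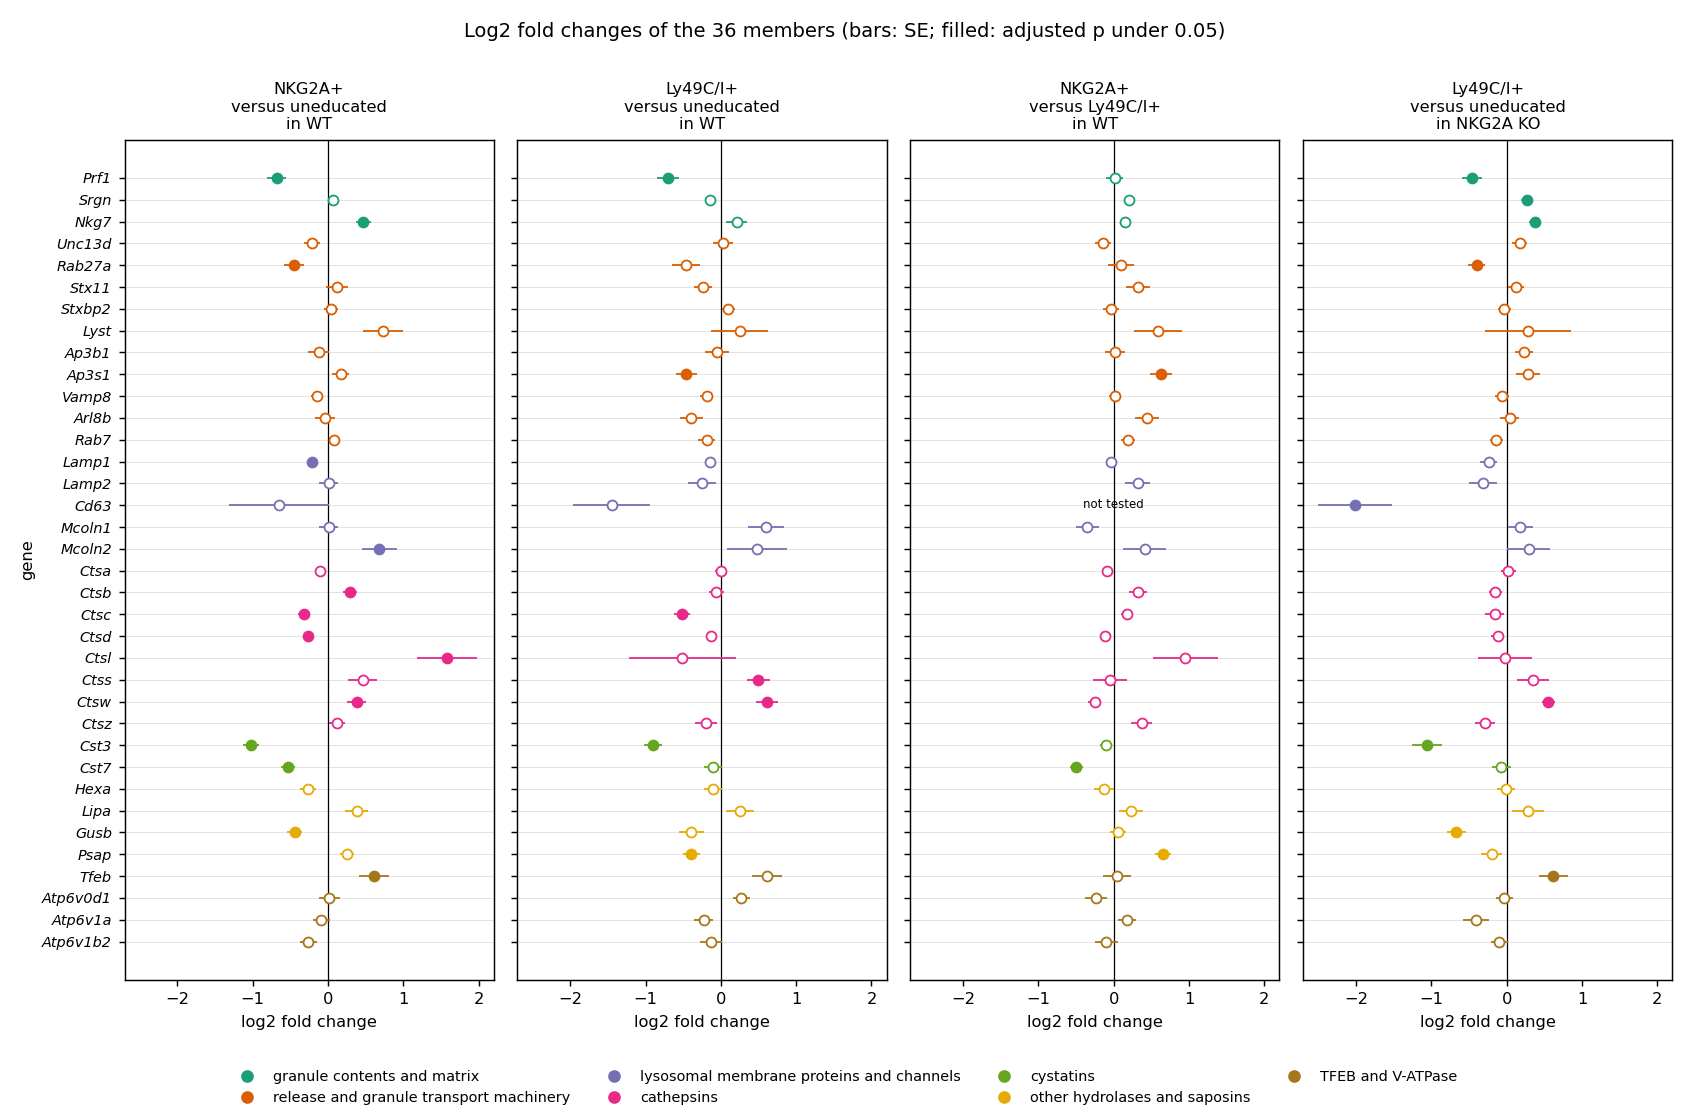
Log2 fold change (x axis) of each of 36 members (y axis) in 4 comparisons, with bars for the SE, filled points for adjusted p under 0.05 and colours for roles. Prf1 and Cst3 lie left of 0 and filled in each of the 3 comparisons with uneducated cells, Ctsw right of 0 and filled, and the 10 release and transport genes mostly lie near 0.

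Perforin, the pore-forming protein of the granule, was lower in both WT educated groups. Prf1 (chromosome 10, 61297833 to 61304680, plus strand) ranged from 2541 to 4528 CPM in WT uneducated libraries (median 3256), from 1504 to 2462 CPM in NKG2A+ libraries (median 2071) and from 1729 to 2853 CPM in WT Ly49C/I+ libraries (median 1882). All NKG2A+ libraries lay below all uneducated ones, and among Ly49C/I+ libraries only number 1, at 2853 CPM, reached into the uneducated range. Prf1 fell by 0.68 on the log2 scale in NKG2A+ cells (SE 0.125, edgeR adjusted p = 0.000958), while the Ly49C/I+ decrease was 0.70 (SE 0.142, adjusted p = 0.00629), and it passed in each of the 27 and 24 alternative settings run for these.

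In KO mice Prf1 ranged from 2295 to 4106 CPM in uneducated libraries (median 2781), and Ly49C/I+ libraries 4 to 8 held 1648, 2167, 2338, 2686 and 1813 CPM. The groups overlapped. The decrease of 0.46 (SE 0.136) had an edgeR adjusted p of 0.0302 and passed in 13 of 22 alternative settings. It ended at 0.0509 to 0.0913 when any of uneducated 1 or 2 or Ly49C/I+ 4, 5 or 8 was left out. It was also lost without uneducated libraries 3 and 6 (log2 -0.35, adjusted p = 0.0657), with no filter on CPM (0.0845) and with offsets for GC content and length (-0.35, adjusted p = 0.0843). With these offsets and the replicate block it was -0.18 (adjusted p = 0.113).

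Nkg7 moved the other way. It ranged from 1945 to 4231 CPM in WT uneducated libraries (median 2572), and from 3199 to 4113 CPM in NKG2A+ libraries (median 3491). Its highest uneducated value was that of library 5, outside the fit, and the remaining groups did not overlap. Nkg7 was higher by 0.47 in NKG2A+ cells (SE 0.0963, adjusted p = 0.00213), and by 0.37 with all 9 and 9 libraries (adjusted p = 0.0324). In WT Ly49C/I+ libraries it ranged from 2652 to 3604 CPM (median 3320), within the uneducated range, with a log2 difference of 0.21 (SE 0.14, adjusted p = 0.371).

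In KO mice the groups did not overlap for Nkg7. Uneducated libraries ranged from 2575 to 3443 CPM (median 2887), and Ly49C/I+ libraries 4 to 8 held 3823, 3531, 4027, 3961 and 3639 CPM. The increase of 0.37 (SE 0.0709, edgeR adjusted p = 0.00277) passed in all 22 alternative settings. Serglycin (Srgn), the granule matrix proteoglycan, was higher in KO Ly49C/I+ cells (0.27, SE 0.0845, adjusted p = 0.038). That call was lost without uneducated 1, 5 or 8 or Ly49C/I+ 7 or 8 (adjusted p 0.0555 to 0.121) and with no filter on CPM (0.0983). Its WT medians lay between 1063 and 1210 CPM, and the edgeR adjusted p was 0.506 for NKG2A+ and 0.227 for Ly49C/I+ against uneducated cells.

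**Figure D3:**
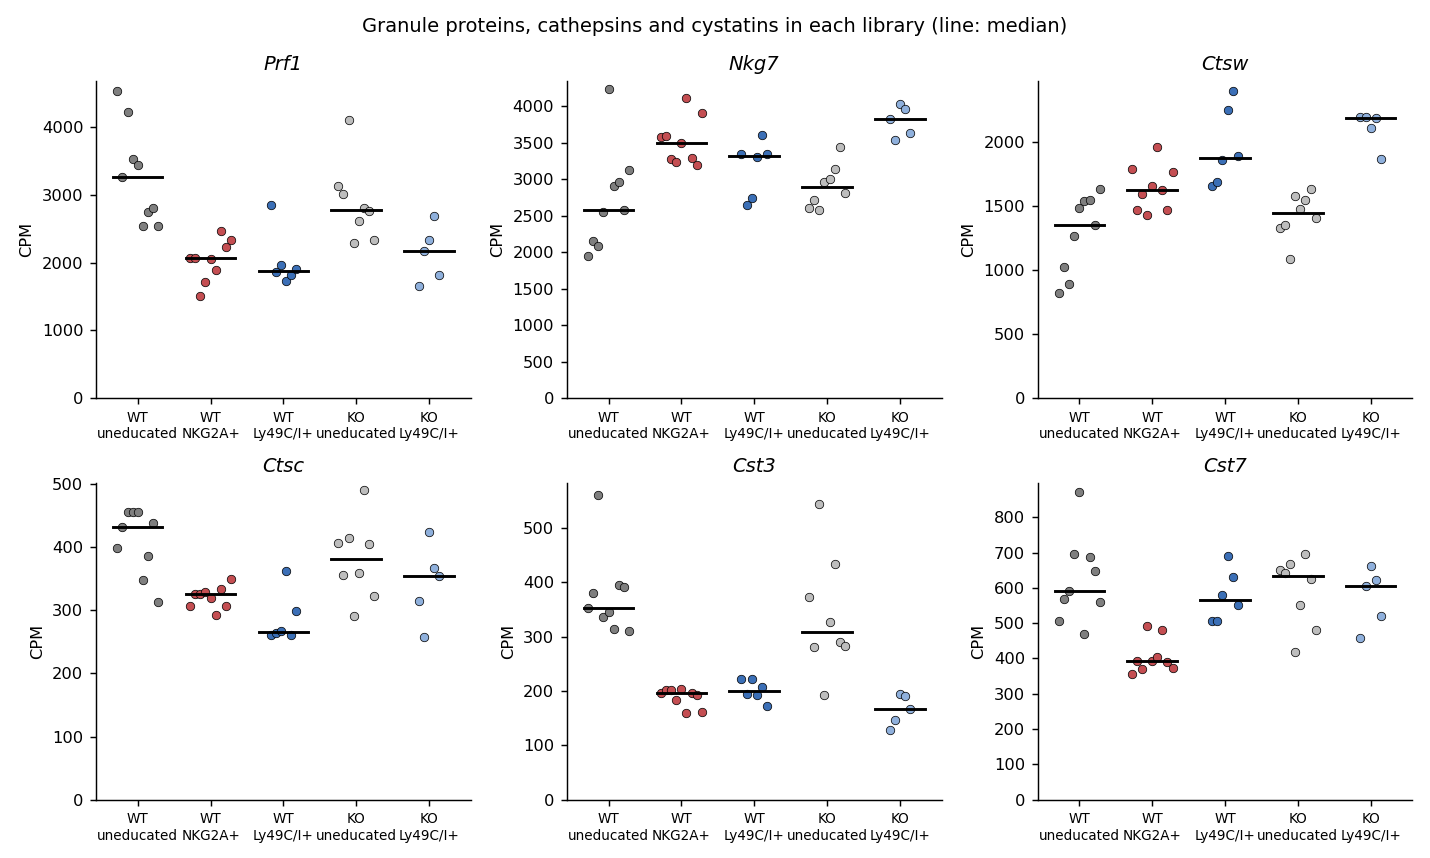
CPM of 6 genes (y axes) in each of the 37 libraries, by group, with a line at the median. Prf1 and Cst3 are lower and Ctsw higher in the educated groups, while Cst7 is lower in NKG2A+ libraries (median 393 CPM) than in the other WT groups (590 and 565 CPM).

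Of the release and granule transport machinery, 1 of 10 measured members (10.0%) passed in each of the 3 comparisons with uneducated cells, against a background of 16.3%, 9.20% and 16.3% of all genes in NKG2A+, WT Ly49C/I+ and KO Ly49C/I+ cells. The members that passed were Rab27a in NKG2A+ and KO Ly49C/I+ cells and Ap3s1 in WT Ly49C/I+ cells, each lower. The 10 median log2 fold changes were -0.00, -0.19 and 0.08. The priming factor Unc13d (MUNC13-4) had medians of 230 CPM in uneducated, 205 CPM in NKG2A+ and 233 CPM in Ly49C/I+ WT libraries, with adjusted p = 0.221 and 0.927. The syntaxin Stx11 and its partner Stxbp2 (MUNC18-2) differed from uneducated WT cells by 0.12 and 0.04 in NKG2A+ cells and by -0.24 and 0.10 in Ly49C/I+ cells, at adjusted p from 0.221 to 0.809. Vamp8, Arl8b, Rab7 and Ap3b1 did not pass either, nor did the granule-size regulator Lyst (0.73 in NKG2A+ cells, SE 0.264, adjusted p = 0.0652), which the likelihood ratio test and DESeq2 called.

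Rab27a, the GTPase that docks granules, ranged from 61.3 to 134 CPM in WT uneducated libraries (median 98.4), from 57.2 to 106 CPM in NKG2A+ libraries (median 76.4) and from 38.5 to 95.7 CPM in Ly49C/I+ libraries (median 78.4). The groups overlapped. The log2 differences from uneducated cells were -0.45 for NKG2A+ (SE 0.136, adjusted p = 0.0292) and -0.46 for Ly49C/I+ (SE 0.189, adjusted p = 0.133). The NKG2A+ call passed in 17 of 27 alternative settings and was lost without uneducated 1, 2 or 4 or NKG2A+ 1 or 3 (adjusted p 0.0543 to 0.0643), with no filter on CPM (0.0676), with all 5 groups in 1 fit (0.0594), with all 9 and 9 libraries (0.0942), and without the libraries high in stroma and decidual (0.0629) or macrophage, monocyte and dendritic cell markers (0.0902). In KO mice uneducated libraries ranged from 75.9 to 101 CPM (median 90.8) and Ly49C/I+ libraries 4 to 8 held 80.7, 74.0, 76.6, 55.9 and 62.2 CPM, a decrease of 0.40 (SE 0.11, edgeR adjusted p = 0.0217). That call passed in 16 of 22 settings. It was lost without Ly49C/I+ library 7 (adjusted p = 0.0557), with no filter on CPM (0.0523), with offsets for GC content and length (0.0636), with all 5 groups in 1 fit (0.139), and with the replicate block alone (0.0903) or with offsets (0.169). Of the 50-base stretches of Rab27a transcripts, 3.59% also occur in other genes.

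Ap3s1, a subunit of the adaptor that sorts cargo to lysosomes and granules, separated the educated groups. It ranged from 31.9 to 49.6 CPM in WT uneducated libraries (median 45.4), from 36.1 to 62.7 CPM in NKG2A+ libraries (median 47.4) and from 23.2 to 35.3 CPM in Ly49C/I+ libraries (median 32.6). Every Ly49C/I+ library lay below every NKG2A+ library. It fell by 0.46 in Ly49C/I+ against uneducated cells (SE 0.14, adjusted p = 0.0451), a call that 13 of 15 single libraries ended when left out, all but uneducated 5 and 6 (adjusted p up to 0.0917). It passed in 6 of 24 alternative settings, with an adjusted p up to 0.286. In KO mice its medians were 44.0 CPM in uneducated and 49.3 CPM in Ly49C/I+ libraries (log2 0.28, adjusted p = 0.252). Pseudogene copies share 18.8% of its 50-base stretches, so that its count is uncertain.

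Among lysosomal membrane proteins, Lamp1, the abundant glycoprotein whose surface appearance marks degranulation, was slightly lower in NKG2A+ cells. It ranged from 285 to 346 CPM in WT uneducated libraries (median 329), from 259 to 318 CPM in NKG2A+ libraries (median 289) and from 255 to 309 CPM in Ly49C/I+ libraries (median 298). The groups overlapped. The NKG2A+ difference was -0.21 (SE 0.0596, adjusted p = 0.0227), past the threshold in 22 of 27 alternative settings, and lost with offsets for GC content and length (adjusted p = 0.115), without the libraries high in stroma and decidual markers (adjusted p = 0.0593) or in macrophage, monocyte and dendritic cell markers (0.0649). The Ly49C/I+ difference was -0.14 (SE 0.0732, adjusted p = 0.235) in WT and -0.24 (SE 0.11, adjusted p = 0.138) in KO mice. In the KO, uneducated libraries ranged from 260 to 373 CPM (median 316) and Ly49C/I+ libraries 4 to 8 held 204, 325, 282, 251 and 311 CPM. Lamp2 had WT medians between 60.2 and 81.1 CPM and did not pass in any comparison.

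Mcoln2, a mucolipin cation channel of endosomes and lysosomes, rose in NKG2A+ cells by 0.68 (SE 0.231, adjusted p = 0.0491). Its levels ranged from 4.07 to 25.1 CPM in WT uneducated (median 15.5), from 18.7 to 40.8 CPM in NKG2A+ (median 28.7) and from 5.23 to 37.6 CPM in Ly49C/I+ libraries (median 22.4), and the groups overlapped. The call stood at the threshold and was lost without uneducated 1, 2, 3, 7 or 8 or NKG2A+ 1, 2, 3, 4, 6, 7 or 9 (adjusted p up to 0.0964). It passed in 9 of 27 alternative settings (adjusted p up to 0.149). In the KO, uneducated libraries ranged from 10.3 to 26.5 CPM (median 17.7), and Ly49C/I+ libraries 4 to 8 held 31.4, 10.7, 22.9, 27.3 and 17.0 CPM. The Ly49C/I+ differences were 0.48 in WT and 0.29 in KO mice (adjusted p = 0.496 and 0.528). Its relative Mcoln1 had WT medians of 40.2, 39.4 and 55.4 CPM in uneducated, NKG2A+ and Ly49C/I+ cells, and the Ly49C/I+ difference of 0.60 (adjusted p = 0.126) passed with all 5 groups in 1 fit and without uneducated library 5, where Mcoln1 was at 9.43 CPM.

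Cd63, a tetraspanin of granule and endosome membranes, was low throughout. KO uneducated libraries ranged from 5.12 to 13.1 CPM (median 7.09), and Ly49C/I+ libraries 4 to 8 held 1.58, 1.35, 5.31, 0.327 and 1.33 CPM. The groups overlapped only through Ly49C/I+ library 6, which also had the highest macrophage, monocyte and dendritic cell marker sum of its group (290 CPM). Cd63 fell by 2.01 on the log2 scale (SE 0.491, edgeR adjusted p = 0.0112). Apart from library 6, the Ly49C/I+ libraries lay below the 5 CPM of the filter on low counts. Cd63 thus entered this test through the uneducated libraries, where it was higher. In WT mice it ranged from 3.66 to 29.0 CPM in uneducated (median 9.00), from 0 to 16.8 CPM in NKG2A+ (median 6.66) and from 0.782 to 8.80 CPM in Ly49C/I+ libraries (median 3.24). The log2 differences were -0.65 (adjusted p = 0.553) and -1.45 (adjusted p = 0.0817). The part of other cell types in these low counts was not tested, and a pseudogene and other genes share 11% of its stretches.

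The cathepsins did not move as a group. Of 8, 5 passed in NKG2A+ cells (3 higher, 2 lower), 3 in WT Ly49C/I+ cells (2 higher, 1 lower) and 1 in KO Ly49C/I+ cells (higher). These are 62.5%, 37.5% and 12.5%, beside 16.3%, 9.20% and 16.3% of all genes. Cathepsin W, a protease of cytotoxic lymphocytes, was the member higher in each. Ctsw ranged from 818 to 1632 CPM in WT uneducated (median 1353), from 1430 to 1963 CPM in NKG2A+ (median 1622) and from 1659 to 2397 CPM in Ly49C/I+ libraries (median 1876). Every Ly49C/I+ library lay above every uneducated one, while NKG2A+ libraries overlapped with them.

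Ctsw rose by 0.61 in WT Ly49C/I+ cells (SE 0.147, adjusted p = 0.0154), which 1 omission moved to 0.0543, that of Ly49C/I+ library 7. Its rise of 0.38 in NKG2A+ cells (SE 0.129, adjusted p = 0.0484) was lost without uneducated 1, 2, 3, 4 or 8 or NKG2A+ 1, 2, 3, 6, 7, 8 or 9 (adjusted p up to 0.0937), and passed in 12 of 27 alternative settings (adjusted p up to 0.151). In the KO, uneducated libraries ranged from 1086 to 1634 CPM (median 1445), and Ly49C/I+ libraries 4 to 8 held 2193, 2194, 2107, 2186 and 1866 CPM. They did not overlap. The KO increase of 0.55 (SE 0.0841, edgeR adjusted p = 0.000642) passed in all 22 alternative settings.

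Cathepsin C, the dipeptidyl peptidase that activates granzymes, was lower in both WT educated groups. Ctsc ranged from 313 to 456 CPM in uneducated (median 432), from 293 to 349 CPM in NKG2A+ (median 326) and from 260 to 362 CPM in Ly49C/I+ libraries (median 266). The ranges overlapped in a few libraries. It fell by 0.32 in NKG2A+ cells (SE 0.0768, adjusted p = 0.00698), and the Ly49C/I+ decrease was 0.52 (SE 0.104, adjusted p = 0.00604), in all of the 27 and 24 alternative settings. In KO mice, uneducated libraries ranged from 291 to 490 CPM (median 381) and Ly49C/I+ libraries 4 to 8 held 315, 258, 424, 367 and 354 CPM. The KO difference was -0.16 (SE 0.125, adjusted p = 0.4), and its difference from the WT effect was not past the threshold either, as given further on.

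Cathepsin L showed the largest change of any member in NKG2A+ cells, a call that was lost when library 5 of each group entered. Ctsl ranged from 3.01 to 94.9 CPM in WT uneducated libraries (median 8.45), from 6.30 to 43.5 CPM in NKG2A+ libraries (median 24.4) and from 3.59 to 26.0 CPM in Ly49C/I+ libraries (median 9.59). The value of 94.9 CPM was that of uneducated library 5, and the next highest was 15.8 CPM. Without library 5 of each group Ctsl rose by 1.58 (SE 0.402, adjusted p = 0.0106), and with all 9 and 9 libraries the value was 0.44 (adjusted p = 0.666). NKG2A+ libraries 1, 3 and 4, high in stroma and decidual markers, held 33.1, 24.4 and 43.5 CPM, and without them the value was 1.10 (adjusted p = 0.116). The part of those cells was not tested. The KO medians were 7.82 and 7.91 CPM, and Ctsl overlaps other annotated genes on both strands.

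Of the other cathepsins, the aspartic protease Ctsd fell by 0.27 in NKG2A+ cells (SE 0.0497, adjusted p = 0.00112), from a median of 1401 to 1174 CPM, with 8 and 8 libraries that did not overlap. A gene annotated on the same strand (Gm49369) shares 32.4% of its stretches. Ctsb was higher by 0.29 in NKG2A+ cells (SE 0.092, adjusted p = 0.039), with medians of 339 and 397 CPM, but by 0.12 (adjusted p = 0.351) without NKG2A+ libraries 1, 3 and 4. It was also lost without uneducated 1, 4, 6, 7, 8 or 9 or NKG2A+ 1, 2, 3 or 4 alone (adjusted p up to 0.082), and passed in 13 of 27 settings. Ctss, the cathepsin of antigen-presenting cells, was higher by 0.50 in WT Ly49C/I+ cells (SE 0.147, adjusted p = 0.0416), and not without uneducated 1, 2, 3, 4, 8 or 9 or Ly49C/I+ 1, 5, 7 or 8 (adjusted p up to 0.125), passing in 9 of 24 settings. Ctsa and Ctsz passed nowhere.

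Cystatin C, a secreted inhibitor of cathepsins, showed the member change with the smallest adjusted p. Cst3 (chromosome 2, 148871722 to 148875692, minus strand) ranged from 311 to 561 CPM in WT uneducated libraries (median 353), from 160 to 203 CPM in NKG2A+ libraries (median 196) and from 173 to 222 CPM in Ly49C/I+ libraries (median 201). No educated library of WT mice reached the lowest uneducated one. Cst3 fell by 1.02 on the log2 scale in NKG2A+ cells (SE 0.105, edgeR adjusted p = 3.58e-06), and the Ly49C/I+ decrease was 0.90 (SE 0.119, adjusted p = 0.000553).

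In KO mice Cst3 ranged from 192 to 544 CPM in uneducated libraries (median 308), and Ly49C/I+ libraries 4 to 8 held 128, 147, 195, 191 and 166 CPM. The groups overlapped through uneducated library 4. The decrease was 1.06 (SE 0.195, edgeR adjusted p = 0.00212). Each of the 3 decreases passed in every alternative setting run, 27, 24 and 22 in turn.

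Cst3 is also made by macrophages and dendritic cells. Of their 14 markers, 5, 4 and 4 were high enough to be tested in these comparisons, and Cd74 and H2-Ab1 passed in each, both lower in educated cells. The others did not pass. In NKG2A+ cells the log2 differences were 1.10 for Lyz2, 1.10 for C1qb and 0.38 for Cd14, in WT Ly49C/I+ cells 1.55 for Lyz2 and 0.02 for Cd14, and in KO Ly49C/I+ cells -0.23 and -1.57 in turn (edgeR adjusted p from 0.192 to 0.984). WT uneducated library 3 held 561 CPM of Cst3 beside 843 CPM of markers and KO uneducated library 3 held 544 beside 761, against 192 beside 185 in KO uneducated library 4. NKG2A+ library 1 held 690 CPM of these markers, more than 8 of the 9 WT uneducated libraries, and 197 CPM of Cst3, while NKG2A+ library 6 held 44.5 CPM of markers and 160 CPM of Cst3. Without the libraries over 600 CPM of markers the decreases were 0.93, 0.83 and 0.83 in NKG2A+, WT Ly49C/I+ and KO Ly49C/I+ cells. Their edgeR adjusted p was 3.64e-06, 0.000258 and 0.00314 in turn. That cut left the marker sums uneven, in KO mice at 185 to 410 CPM in uneducated and 22.5 to 290 CPM in Ly49C/I+ libraries. The part of these cells in the Cst3 differences was not tested.

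**Figure D4:**
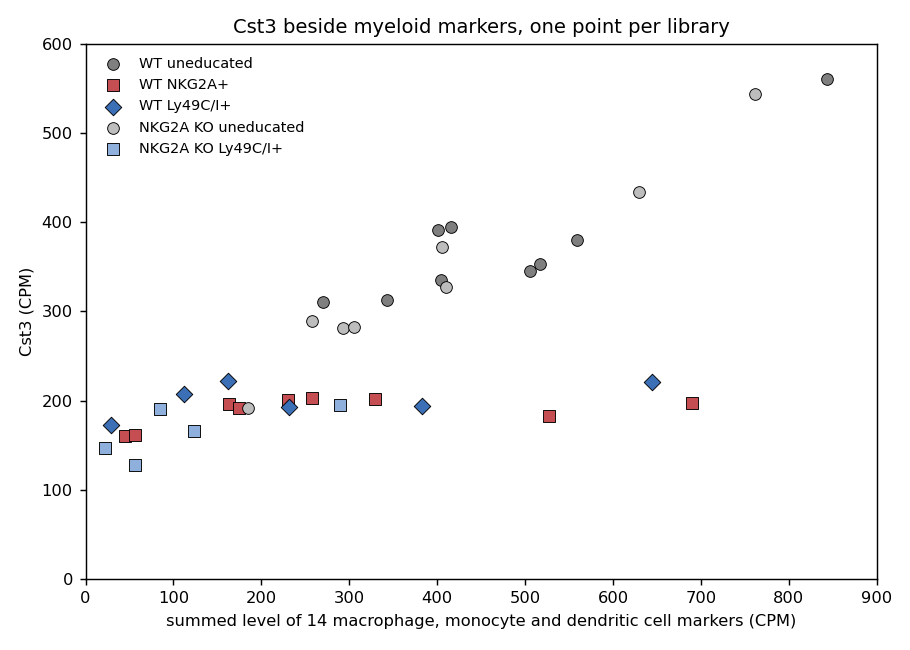
Cst3 (y axis, CPM) against the summed level of 14 macrophage, monocyte and dendritic cell markers (x axis, CPM), with one point per library and a colour for each of the 5 groups. NKG2A+ library 1 lies at 690 CPM of markers and 197 CPM of Cst3, whereas WT uneducated library 3 lies at 843 and 561 CPM.

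Cystatin F, the inhibitor that cytotoxic cells keep in their granules and that acts on cathepsin C, followed another pattern. Cst7 ranged from 469 to 872 CPM in WT uneducated (median 590), from 356 CPM to below 505 CPM in NKG2A+ (median 393, with library 4 highest) and from 505 to 689 CPM in Ly49C/I+ libraries (median 565). NKG2A+ libraries lay below all Ly49C/I+ libraries, the lowest of which was at 505 CPM, and overlapped with uneducated library 6 alone among uneducated ones, at 469 CPM. Cst7 fell by 0.53 in NKG2A+ against uneducated cells (SE 0.0912, adjusted p = 0.000548), in all 27 alternative settings, whereas the Ly49C/I+ difference was -0.11 (SE 0.12, adjusted p = 0.638). In KO mice uneducated libraries ranged from 419 to 697 CPM (median 635), and Ly49C/I+ libraries 4 to 8 held 459, 604, 661, 621 and 520 CPM, with a difference of -0.07 (SE 0.121, adjusted p = 0.759) whose sign changed in 5 settings.

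Of the other hydrolases, Gusb (beta-glucuronidase) was lower in NKG2A+ and KO Ly49C/I+ cells. It ranged from 53.7 to 150 CPM in WT uneducated (median 129), from 79.3 to 129 CPM in NKG2A+ (median 98.9) and from 80.5 to 107 CPM in Ly49C/I+ libraries (median 96.3). The lowest uneducated value was that of library 5, and the groups overlapped. It fell by 0.44 in NKG2A+ cells (SE 0.0981, adjusted p = 0.00408), but by 0.32 (adjusted p = 0.144) with all 9 and 9 libraries. In KO mice uneducated libraries ranged from 87.6 to 154 CPM (median 124), Ly49C/I+ libraries 4 to 8 held 81.2, 73.3, 79.5, 74.2 and 89.2 CPM with an overlap through uneducated library 7, and the decrease was 0.67 (SE 0.127, edgeR adjusted p = 0.00259). The WT Ly49C/I+ difference was -0.39 (SE 0.166, adjusted p = 0.153). That fit included uneducated library 5, whereas the fit that called Gusb in NKG2A+ cells did not. The results of the educated WT groups therefore rest on unlike library sets. Hexa and Lipa passed nowhere.

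Psap, the precursor of the saposins that help hydrolases reach their lipids, lay on opposite sides of uneducated cells in the educated WT groups. It ranged from 234 to 375 CPM in uneducated (median 290), from 297 to 409 CPM in NKG2A+ (median 362) and from 171 to 291 CPM in Ly49C/I+ libraries (median 222). All NKG2A+ libraries were above all Ly49C/I+ libraries, and both overlapped with uneducated ones. The difference from uneducated cells was 0.25 for NKG2A+ (SE 0.0925, adjusted p = 0.0683) and -0.39 for Ly49C/I+ (SE 0.118, adjusted p = 0.0472). The latter was lost without uneducated 1, 2, 3, 4 or 7 or Ly49C/I+ 2, 4, 5, 7 or 8 (adjusted p up to 0.094), passing in 10 of 24 settings. In KO mice uneducated libraries ranged from 219 to 404 CPM (median 316) and Ly49C/I+ libraries 4 to 8 held 280, 378, 290, 206 and 254 CPM (log2 -0.20, adjusted p = 0.364).

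Tfeb, the transcription factor of lysosome biogenesis, was higher in NKG2A+ and KO Ly49C/I+ cells. It ranged from 26.2 to 65.7 CPM in WT uneducated (median 33.2), from 39.9 to 92.6 CPM in NKG2A+ (median 57.0) and from 48.4 to 81.1 CPM in Ly49C/I+ libraries (median 56.0). The groups overlapped. The differences were 0.61 for NKG2A+ (SE 0.2, adjusted p = 0.0435) and 0.61 for Ly49C/I+ (SE 0.197, adjusted p = 0.0585). The NKG2A+ call was lost without uneducated 1, 2, 3, 4 or 8 or NKG2A+ 3, 6, 7, 8 or 9 (adjusted p up to 0.0954), and passed in 15 of 27 alternative settings.

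In KO mice Tfeb ranged from 28.9 to 64.6 CPM in uneducated libraries (median 50.3), and Ly49C/I+ libraries 4 to 8 held 63.0, 107, 62.1, 72.0 and 76.4 CPM. Its rise of 0.62 (SE 0.192, edgeR adjusted p = 0.0368) was lost without uneducated 1, 2, 3 or 8 or Ly49C/I+ 5, 7 or 8 (adjusted p up to 0.114), and passed in 10 of 22 settings (adjusted p up to 0.238). The V-ATPase subunits Atp6v0d1, Atp6v1a and Atp6v1b2, parts of the pump that acidifies the lysosome, passed in none of the comparisons with uneducated cells, with differences between -0.41 and 0.27.

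**Figure D5:**
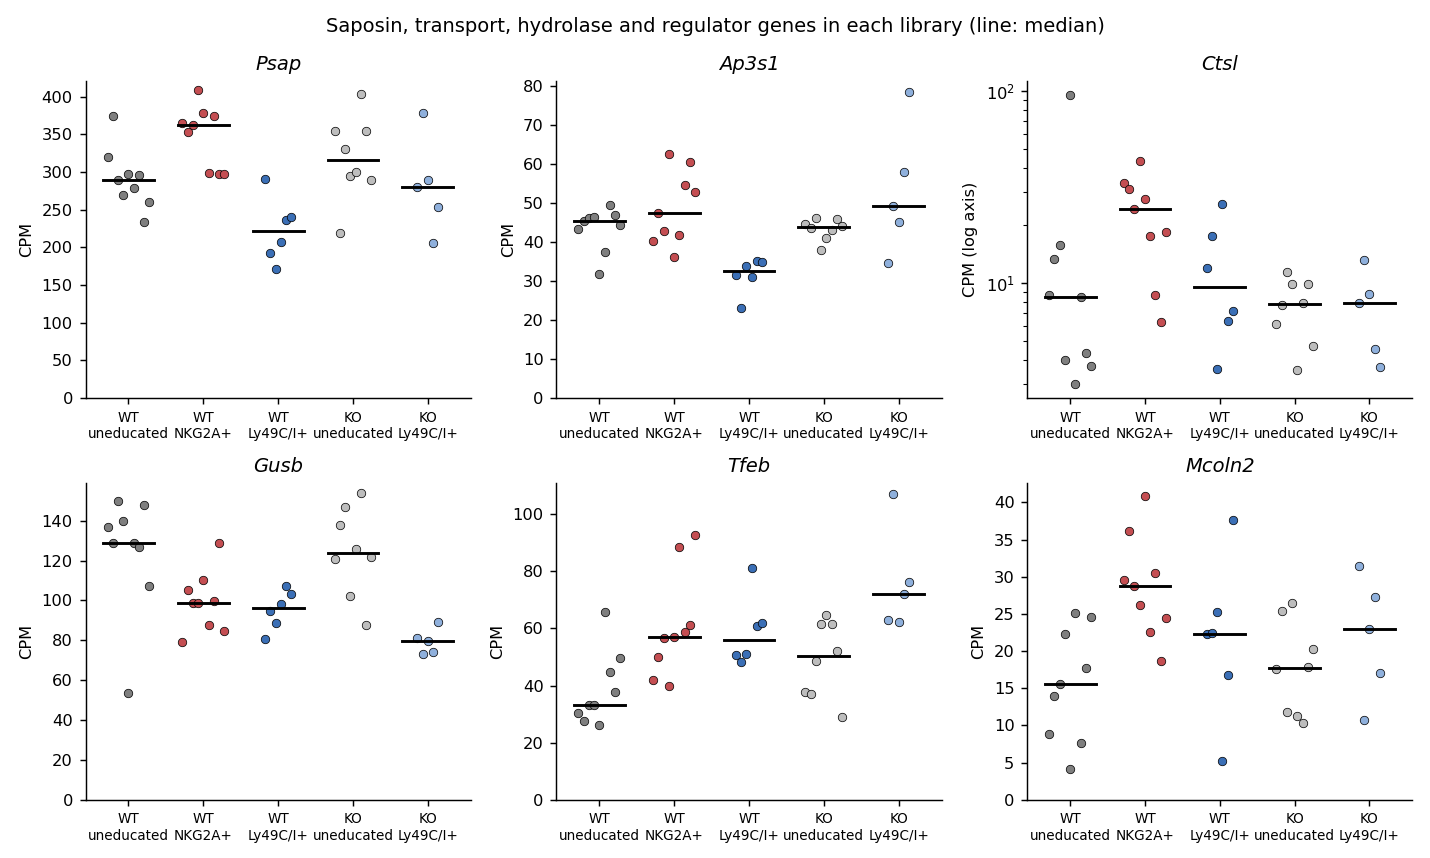
CPM of 6 genes (y axes, log axis for Ctsl) in each of the 37 libraries, by group, with a line at the median. Psap and Ap3s1 are lower in WT Ly49C/I+ libraries (medians 222 and 32.6 CPM) than in NKG2A+ libraries (362 and 47.4 CPM), and WT uneducated library 5 stands at 94.9 CPM for Ctsl.

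NKG2A+ and Ly49C/I+ cells of WT mice were compared directly, all 9 and 6 libraries entering, to ask whether the receptors go with different levels. Of 35 members tested, 3 passed (8.57%, against 2.73% of 9308 genes, 1.31% higher and 1.42% lower), and Cd63 was below the filter on low counts. The same 3 were those whose groups did not overlap, against 1.04% of all genes. Psap was higher in NKG2A+ cells by 0.65 (SE 0.107, edgeR adjusted p = 0.00358) and Ap3s1 by 0.63 (SE 0.148, adjusted p = 0.0272), while Cst7 was lower by a log2 value of -0.50 (SE 0.0863, adjusted p = 0.00444). Psap and Cst7 passed in all 24 alternative settings, and Ap3s1 in 17, being lost without NKG2A+ 8 or Ly49C/I+ 2 or 5 (adjusted p up to 0.0675), without NKG2A+ 1, 3 and 4 (0.0779), with no filter on CPM (0.067), and, at a log2 value of 0.43, with offsets for GC content and length alone (adjusted p = 0.15) or with the replicate block (0.235). Prf1 differed by 0.01 (95% interval -0.21 to 0.23, adjusted p = 0.968), and Cst3 by -0.10 (-0.25 to 0.06, adjusted p = 0.56). For 33 of the 35 the 95% interval lay within 1 of 0 on the log2 scale, the others being Lyst and Ctsl. The 3 members that passed are among these 33, so this limit is too wide to show likeness at the size of those differences.

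The genotypes were compared within each cell type. In uneducated cells, 0 of 36 members and 0 of 9288 genes passed the edgeR test between NKG2A KO and WT mice, and 6.66% of the genes had an unadjusted p under 0.05. DESeq2 called 0 members as well. The groups overlapped for every member, and for all but 0.0323% of genes. The difference was -0.19 for Prf1 (95% interval -0.43 to 0.06), and -0.14 for Cst3 (-0.45 to 0.17), and for 34 of 36 members the interval lay within 1 of 0, the others being Cd63 and Ctsl. Differences smaller than that limit were not excluded.

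In Ly49C/I+ cells, 0 of 35 members and 0 of 9344 genes passed between the genotypes, with 10.6% of genes at an unadjusted p under 0.05, and 1.57% of genes did not overlap. Srgn was the 1 member whose libraries did not overlap, with 959 to 1143 CPM in WT and 1222 to 1676 CPM in KO libraries (log2 0.39, SE 0.0914, adjusted p = 0.181). It was called by DESeq2, by the likelihood ratio test and with all 5 groups in 1 fit, where Ap3s1 was called too (0.75, SE 0.204, adjusted p = 0.225 in the test with 2 groups). The Ly49C/I+ effect itself differed between genotypes for 0 of 36 members and 0 of 9322 genes by edgeR, with 4.37% of genes at an unadjusted p under 0.05, and DESeq2 called 0 members. The difference of effects, KO minus WT, was 0.26 for Prf1 (95% interval -0.14 to 0.67) and 0.37 for Ctsc (0.04 to 0.69, without adjustment), both with an edgeR adjusted p of 0.999. Other unadjusted intervals on 1 side of 0 were those of Ap3s1 (0.75, from 0.35 to 1.15) and Srgn (0.43, from 0.21 to 0.64). The same held for Arl8b (0.44, from 0.06 to 0.83), Stx11 (0.37, from 0.06 to 0.68) and Atp6v0d1 (-0.29, from -0.58 to -0.00). For 30 of 36 members the interval lay within 1 of 0, which does not exclude smaller differences.

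Other genes of the same pathways were read from lists of 125 genes. In NKG2A+ against uneducated cells 13 of 105 tested passed, 6 higher and 7 lower (12.4%, against 16.3% of all genes). The largest increases were those of Acp5, a lysosomal acid phosphatase (1.63, edgeR adjusted p = 0.000125), Rab27b, the close relative of Rab27a (1.54, adjusted p = 2.46e-05), the synaptotagmin-like Rab27 effector Sytl3 (0.52, adjusted p = 0.0358) and the syntaxin-binding Stxbp3 (0.47, adjusted p = 0.039). The decreases included the hydrolases Gaa (-0.77, adjusted p = 0.00186) and Asah1 (-0.50, adjusted p = 0.00829) and the cholesterol transporter Npc1 (-0.46, adjusted p = 0.0237). Acp5 and Rab27b were also higher than in Ly49C/I+ cells, by 1.02 and 1.07 (adjusted p = 0.0066 and 0.00471). They were the 2 of 105 genes that passed there (1.90%, against 2.73% of all genes).

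In WT Ly49C/I+ against uneducated cells 9 of 104 passed (8.65%, against 9.20%), 4 higher and 5 lower. Vps16 of the vesicle-tethering HOPS complex rose by 0.73, the SNARE Vamp2 by 0.64, the mannose 6-phosphate receptor Igf2r by 0.63 and the V-ATPase subunit Tcirg1 by 0.44 (edgeR adjusted p from 0.0316 to 0.0484). The ganglioside activator Gm2a was lower (-1.03), as were Asah1 (-0.70), Man2b1 (-0.57) and the other mannose 6-phosphate receptor M6pr (-0.53), at adjusted p from 0.00444 to 0.0434. In KO mice 11 of 104 passed (10.6%, against 16.3%), 6 higher and 5 lower. Stxbp3 (0.63), Hps5 of a complex for lysosome-related organelles (0.58), Tcirg1 (0.54) and Gnptg (0.48) led the increases, at adjusted p from 0.0148 to 0.039. Gm2a (-1.01), M6pr (-0.52), Gaa (-0.45) and Man2b1 (-0.33) led the decreases, at adjusted p from 0.00505 to 0.0302. Of 32 other hydrolases and cofactors tested, 4 (12.5%) passed as lower in each of the 3 comparisons and 1, Acp5, as higher in NKG2A+ cells. Over all genes, 7.70%, 4.70% and 8.99% were lower in NKG2A+, WT Ly49C/I+ and KO Ly49C/I+ cells.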

How the data were processed

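Uterine NK cells were sorted and RNA libraries were made with SMART-Seq v4 and Nextera XT. The authors trimmed reads with Trim Galore 0.5.0 and aligned them with STAR 2.7.1 to GRCm38, and the deposited files hold raw counts of reads per gene for each of 37 libraries. For the counting program and strand setting, no name was given in the sources used here. Summary lines that name no gene were left out of totals and tests, and the reads without a feature made up 2.69 to 6.83%, ambiguous reads 4.04 to 4.6% and reads not uniquely aligned 11.3 to 13.8%. Gene symbols, positions and exon lengths came from GENCODE M21, which matched 36 of the 37 members.

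The quasi-likelihood test of edgeR 4.0.16 (R 4.3.3, TMM factors) was run on every gene that reached 5 CPM in a share of 0.5 or more of the compared libraries, with Benjamini-Hochberg adjustment over all genes tested and a threshold of 0.05. SEs were taken from the test statistic, and 95% intervals are the estimate plus and minus a normal multiple of the SE, unadjusted. The scripts were tested on simulated data. CPM values use TMM factors over all 37 libraries. NKG2A+ and uneducated WT cells were compared without library 5 of each, and all 9 and 9 libraries were an alternative that ended the calls of Ctsl, Gusb, Rab27a and Ctsb. Alternatives were the likelihood ratio test, DESeq2 1.42.0, RLE factors, no filter on CPM, spline offsets for GC content and length in place of the study's CQN, all 5 groups in 1 fit, the replicate number as a block, and each library left out in turn (98 fits). Leaving out libraries with over 100 CPM of stroma and decidual markers or over 600 CPM of macrophage, monocyte and dendritic cell markers was added after the data were seen.

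The members and all gene lists were chosen with earlier results of these data known. Values in every group were given for Prf1, Lamp1, Ctsc, Cst7, Cst3, Tfeb and Mcoln2, for members past the threshold in 2 or more of 6 comparisons of groups and for the 3 largest changes past it in each comparison, and of the other pathway genes the 4 largest increases and decreases were named, except for an item that is not reported here. Other values were added for members whose calls are described.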

Additional observations from a re-analysis of the deposited data

Results flagged for a closer look

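Across 75 groups of libraries for 15 members, 9 held a library far from the others of its group, where chance gives about 1 group in 20. WT uneducated library 5 gave 2 of these, with 94.9 CPM of Ctsl (next 15.8 CPM) and 53.7 CPM of Gusb (next 107 CPM). Prf1 reached 4106 CPM in KO uneducated library 3 (next 3126 CPM) and 2853 CPM in WT Ly49C/I+ library 1 (next 1960 CPM), and both libraries also had the highest macrophage, monocyte and dendritic cell marker sums of their groups (761 and 644 CPM). Cst3 reached 561 CPM in WT uneducated library 3 (next 395 CPM), again the library with the highest sum of its group (843 CPM). Cd63 was at 5.31 CPM in KO Ly49C/I+ library 6 (next 1.58 CPM), whose marker sum of 290 CPM was the highest of its group. The part of those cells in these values was not tested. Ap3s1 was low in WT Ly49C/I+ library 2 (23.2 CPM, next 31.0 CPM), Lamp1 in WT Ly49C/I+ library 7 (255 CPM, next 291 CPM) and Ctsw in KO Ly49C/I+ library 8 (1866 CPM, next 2107 CPM).

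NKG2A+ and Ly49C/I+ cells of WT mice differed by a direct test for 3 members, and no uneducated library entered that test. The log2 differences were 0.63 for Ap3s1, -0.50 for Cst7 and 0.65 for Psap.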

How the results depend on the processing

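Of the member counts, that of NKG2A+ against uneducated cells (14) was 9 with no filter on CPM, 8 without the libraries over 100 CPM of stroma and decidual markers and 8 without those over 600 CPM of macrophage, monocyte and dendritic cell markers, and ranged from 9 to 13 when 1 library was left out. That of WT Ly49C/I+ against uneducated cells (7) was 4 with no filter and ranged from 3 to 10 when 1 library was left out, and that of KO Ly49C/I+ cells (9) was 5 with no filter. Dropping the filter adds low genes to the adjustment. Between genotypes in Ly49C/I+ cells, 0 became 1 by the likelihood ratio test and 1 by DESeq2 (Srgn), and 2 with all 5 groups in 1 fit. The cause of these changes was otherwise not tested.

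Signs changed only for values that did not pass. Cst7 in Ly49C/I+ against uneducated cells was 0.01 in WT mice with offsets for GC content and length, and in KO mice 0.10 with these offsets, 0.04 with the replicate block, 0.18 with both, 0.01 without the libraries over 600 CPM and between -0.13 and 0.00 when 1 library was left out. Between NKG2A+ and Ly49C/I+ cells, Tfeb was -0.19 with the replicate block, and Ctsc was -0.03 and Cst3 0.08 with the block and offsets. When 1 library was left out there, Prf1 ranged from -0.03 to 0.14 and Tfeb from -0.06 to 0.15.

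The replicate numbers were not used to pair libraries in the main tests, since the study names no block. Correlations of same-numbered libraries' deviations ranged from -0.03 to 0.27 and did not all exceed 0.1. A library correlated best with its own number in 5 of 9 cases for NKG2A+ and 6 of 6 for WT Ly49C/I+ against uneducated cells. The same held in 6 of 6 cases for NKG2A+ against Ly49C/I+ cells and in 3 of 5 for KO cells. Same-numbered libraries may thus be paired, which the main tests do not take into account. With the replicate block the member counts were 14, 7, 4 and 7, and with the block and offsets 13, 6, 2 and 6.

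Cd63 in KO cells was lost with all 5 groups in 1 fit (adjusted p = 0.0704), and Gusb there with the block and offsets (0.051). The intervals of Ctsl and Cd63 were wide, and their libraries differed widely within groups.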
